A study of Mus musculus with 12 samples.

Results

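The nuclear-encoded genes of the mitochondrial respiratory chain were examined in RNA-seq libraries from the hypothalamus of 12 male mice. Members were the gene symbols that name a subunit of complexes I to V or cytochrome c (Nduf, Sdh, Uqcr, Cox4 to Cox8, Cyc1, Cycs and Atp5), with a mean of at least 1 CPM (reads of a gene divided by the scaled library total) over the 12 libraries. Of 32494 listed genes, 96 matched by name. After 2 pseudogene names and 7 genes under 1 CPM were set aside, 87 members remained. They were 36 genes of complex I, 4 of complex II, 9 of complex III, 15 of complex IV (Ndufa4 and Ndufa4l2 included), 17 of complex V, cytochrome c itself (Cycs), and 5 assembly factors whose symbols begin with a listed name (Sdhaf1 to Sdhaf4 and Cox7a2l). All mice carried floxed Smc3 alleles and had been given tamoxifen, and the title of every library, cKO included, also holds the word control, which the labels do not explain. Mice without the Camk2a-cre/ERT2 transgene formed the WT group (n = 7), and mice with it the cKO group (n = 5). Camk2a-cre/ERT2 makes a tamoxifen-activated recombinase under a promoter of forebrain excitatory neurons, so a whole hypothalamus also holds many cells that do not make it. The hypothalamus was collected 5 weeks after tamoxifen, and the labels give 8 weeks as the age of the mice without tying it to a step. No group carried the transgene without floxed alleles, so effects of the transgene and of the floxed gene cannot be told apart. The series asks what SMC3, a subunit of the cohesin ring, does in the adult brain.

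The respiratory chain sits in the inner mitochondrial membrane. Complexes I and II pass electrons from NADH and succinate to ubiquinone, complex III passes them to cytochrome c, and complex IV hands them to oxygen. Complexes I, III and IV pump protons, and complex V, the ATP synthase, uses the proton gradient to make ATP. Most subunits are encoded in the nucleus and imported, while a few hydrophobic ones are encoded in mitochondrial DNA; those were not analysed here. Neurons depend heavily on this pathway to restore ion gradients after firing.

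Recovered depth was 17.1 to 24.0 M reads (megareads) in 11 libraries and 68.7 M in WT 1. Smc3, the targeted gene, was at 76.8 to 85.7 CPM in the WT libraries and at 116 to 144 CPM in the libraries labelled cKO, so its gene-level value went against the label (log2 fold change 0.67, SE 0.05, limma adjusted p = 3.06e-05). The deposited value covers the whole gene and does not resolve the floxed exons. Each direction given here for cKO therefore means "in the libraries labelled cKO". Libraries also differed in regional markers. The mean log2(CPM + 1) of 13 hypothalamic markers was 2.68 in WT 4, 2.48 in WT 5, 3.06 in cKO 12 and 3.45 in cKO 13, against 3.73 to 5.18 in the other libraries, and no hypothalamic, neuronal or glial list had a gene at 0 in all libraries. The same mean over 6 oligodendrocyte markers was 9.29 to 9.48 in those 4 libraries and 8.30 to 9.02 in the others.

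Transcripts of the respiratory chain were slightly more abundant in the libraries labelled cKO. The log2 fold change was above 0 for 84 of 87 members, against 52.5% of the 15359 genes tested. Its median was 0.16, a ratio of 1.12, against 0.01 over all tested genes. A value above 0 was not particular to the members. It was found for 71 of 74 genes of the cytoplasmic ribosome (median 0.08) and 73 of 78 of the mitochondrial ribosome (median 0.10). With limma on log2(CPM + 1) and a Benjamini-Hochberg adjusted p under 0.05 over all tested genes, 22 members rose (25.3%) and 1 fell, the muscle-type complex IV subunit Cox6a2. Over all tested genes 14.1% passed this threshold, 6.54% as higher (1004 genes) and 7.6% as lower (1168 genes). Of 8 pan-neuronal genes 6 had a log2 fold change above 0 and 2 below, from -0.06 to 0.45. Their mean log2 level was also higher in cKO, by 0.13. With that mean as a covariate, an alternative chosen after seeing the data, the median over members was 0.05. In that fit 2 members passed (2.30%, against 12.1% of tested genes). With the mean of 10 thalamic markers as a covariate the median was 0.17 and 0 members passed in limma, against 4.28% of tested genes. At an unadjusted p under 0.05 that fit had 35 members, 34 of them higher, against 23.5% of tested genes in either direction and 11.2% as higher. With the thalamic and the hypothalamic means together the median was 0.20 and 17 members passed, all higher (19.5%, against 8.65% of tested genes). The balance of calls over all genes depended on scaling, with 1377 higher and 1054 lower after median centring. The remaining 64 members did not pass, and their log2 fold changes were small as well, from -0.18 (Cox6b2) to 0.26 (Cox6c). Over all members the values ran from -0.66 (Cox6a2) to 0.43 (Sdhaf4), and both of these passed.

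The spread between mice was of the same order as the difference between groups. Ranges of CPM did not overlap for 6 members, all higher in the libraries labelled cKO (Ndufa2, Ndufa7, Ndufc1, Uqcrq, Sdhaf2 and Sdhaf4), against 3.52% of all tested genes in that direction. The count of the 87 members past the threshold was 7 without WT 1 (8.05%, against 7.55% of tested genes in that fit) and 7 without cKO 13 (8.05%, against 10.1%). In these fits the share of members was close to or under that of all tested genes. It was 37 without WT 5 (42.5%, against 15%). Without WT 11 it was 11 (12.6%, against 10%), without cKO 9 it was 12 (13.8%, against 9.76%), and without WT 6 it was 14 (16.1%, against 11.2%). It was 15 without WT 15 (17.2%, against 13.1%) and 15 without cKO 14 (17.2%, against 9.46%). The median log2 fold change stayed between 0.12 and 0.19 in the 12 fits that each left out 1 mouse. Sdhaf4, Sdhaf2, Ndufa1, Ndufc1 and Uqcrq passed the threshold in each of these 12 fits. An FDR under 0.05 in the authors' deposited table was given to 14 members, all of them among these 23, and to 9.09% of the tested genes.

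**Figure D1:**
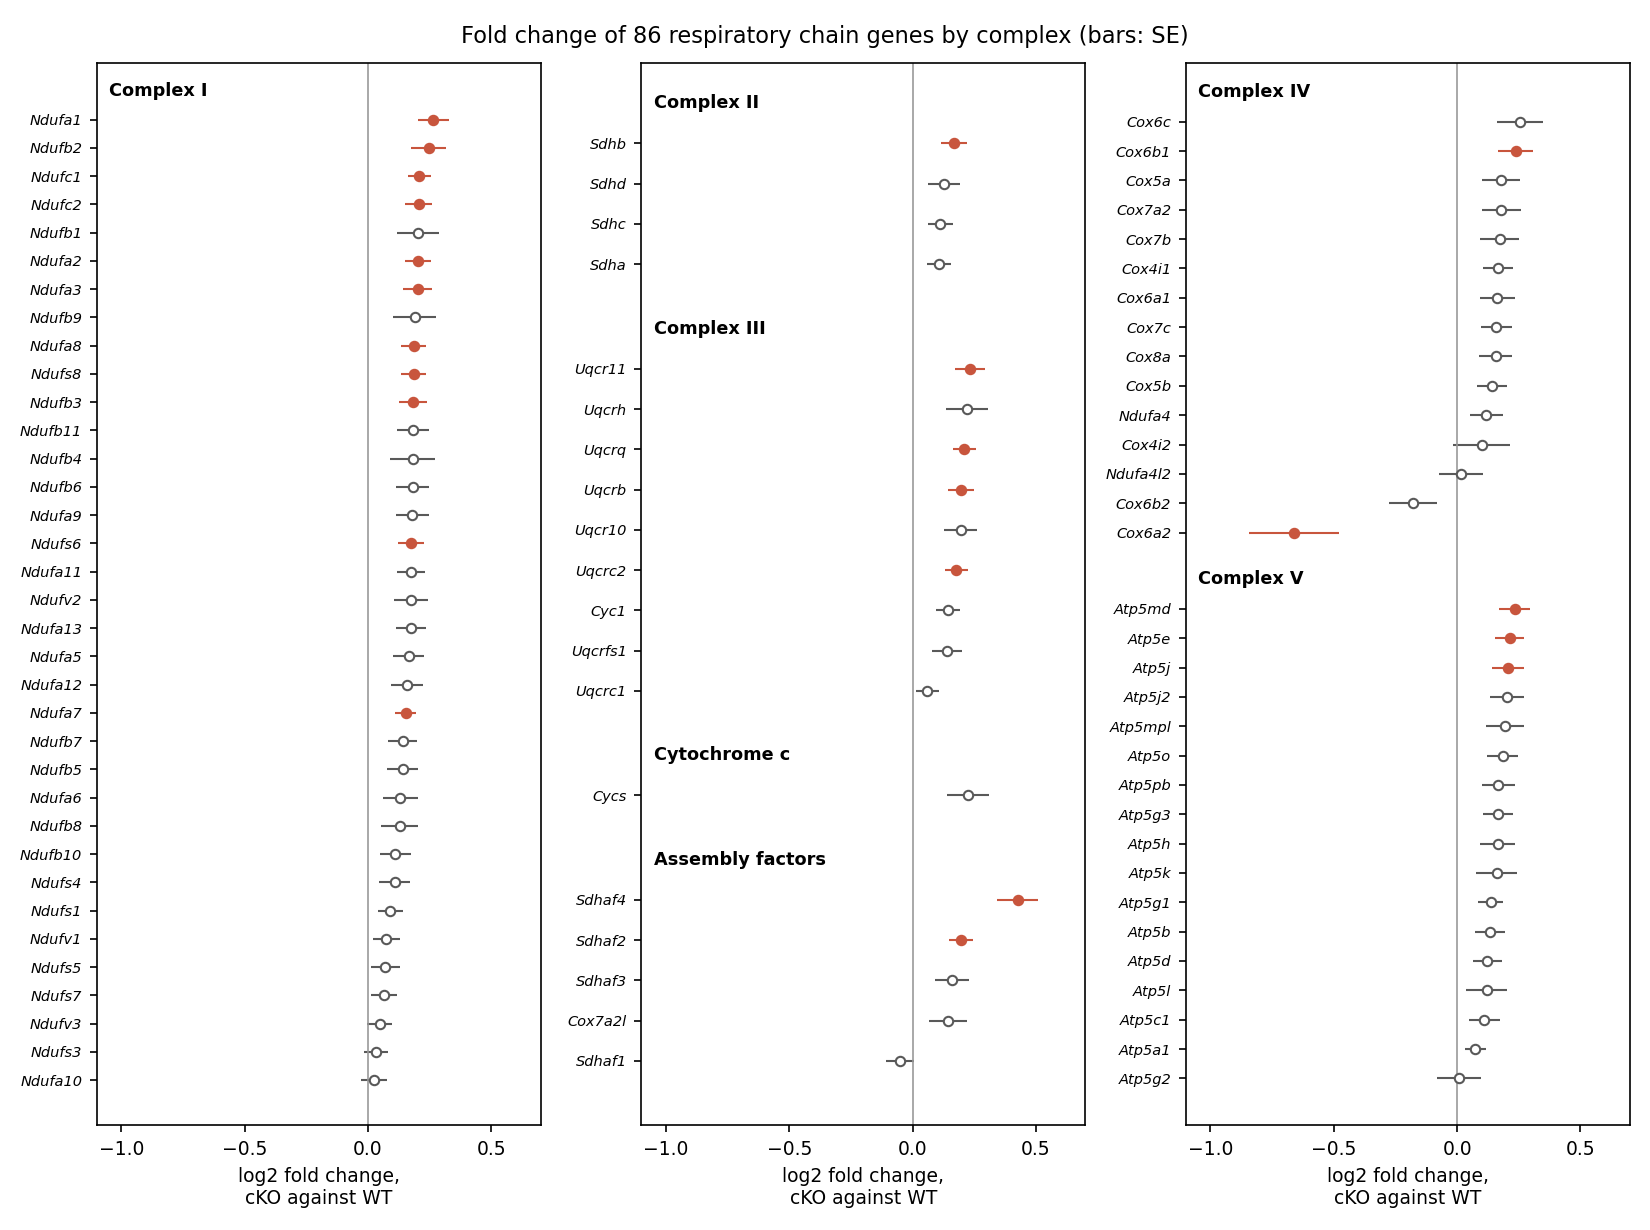
Log2 fold change of 86 of the 87 members in the libraries labelled cKO against WT (x axis, limma on log2(CPM + 1)), 1 gene per line, grouped by complex; points are estimates, bars are SE, and filled red points passed the adjusted p of 0.05. All but 3 points lie right of 0, most between 0.1 and 0.25, while Cox6a2 lies at -0.66 and Sdhaf4 at 0.43.

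Complex I, the NADH dehydrogenase and entry point for most electrons, had all 36 members above 0, and 11 of them rose (30.6%, against 6.54% of tested genes that were higher and 14.1% that passed in either direction). The median log2 fold change was 0.17. The count past the threshold was 3 without WT 1 and 3 without cKO 13. In those fits 7.55% and 10.1% of tested genes passed. Without WT 5 the count was 18, against 15% of tested genes. The largest change was that of Ndufa1, a small membrane subunit needed for assembly. Ndufa1 was at 23.6, 25.4 and 29.2 CPM (lowest, median and highest) in the WT mice, and at 30.5, 31.7, 30.5, 34.1 and 28.2 CPM in cKO 8, 9, 12, 13 and 14. Only cKO 14 fell within the WT range, below WT 5. Its log2 fold change was 0.26 (SE 0.06, limma adjusted p = 0.0172). Ndufc1, another subunit of the membrane arm, was at 32.3, 34.7 and 37.4 CPM in WT mice and at 40.7, 38.4, 40.2, 44.0 and 39.8 CPM in the mice labelled cKO. Every mouse labelled cKO was above every WT mouse (log2 fold change 0.21, SE 0.05, limma adjusted p = 0.0134). The ranges of Ndufa2 and Ndufa7, accessory subunits of the matrix arm, did not overlap either. Ndufa2 was at 43.1 to 52.5 CPM in WT and 53.2 to 61.2 CPM in cKO libraries, and Ndufa7 at 44.2 to 51.0 and 51.4 to 54.8 CPM.

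The other complex I genes that rose were Ndufb2, Ndufb3 and Ndufc2 of the membrane arm, Ndufa3, Ndufa8, Ndufs6 and Ndufs8. Ndufs6 is the zinc-binding subunit and Ndufs8 an iron-sulphur subunit. The log2 fold changes of these genes were from 0.18 to 0.25. Of the 12 fits that left out 1 mouse, Ndufb3 passed in 1, Ndufs6 in 2, Ndufa3 in 4 and Ndufb2 in 6. Ndufa8 passed in 7, Ndufs8 in 8 and Ndufc2 in 9, and of the genes above Ndufa7 passed in 5 and Ndufa2 in 10. Of the 7 core subunits, the set that carries electrons from NADH to the quinone site, 1 passed, Ndufs8, which as 14.3% is close to the 14.1% of tested genes that passed in either direction. The median over these 7 was 0.09. Over the 29 accessory subunits it was 0.18, and 10 of them rose (34.5%, against 6.54% of tested genes). The smallest value in the complex was that of the accessory subunit Ndufa10 at 0.02, with an interval from -0.09 to 0.14.

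Complex II, succinate dehydrogenase, also works in the citric acid cycle and is encoded wholly in the nucleus. All 4 subunits were above 0 (median log2 fold change 0.12), and 1 of the 4 rose, the iron-sulphur subunit Sdhb. Over all tested genes 6.54% were higher and 14.1% passed in either direction, and a single call among 4 genes is too few to set against these shares. Sdhb was at 107, 115 and 122 CPM in WT and at 126, 121, 126, 149 and 124 CPM in cKO 8, 9, 12, 13 and 14. Only cKO 9 lay within the WT range (log2 fold change 0.17, SE 0.05, limma adjusted p = 0.0454), and the gene passed in 2 of the 12 fits that left out 1 mouse. Sdha, the flavin-carrying catalytic subunit, had the highest CPM of the complex, 586 ± 32.8 (SD, n = 7) in WT and 632 ± 33.9 (SD, n = 5) in cKO, and did not pass (limma adjusted p = 0.151).

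The largest rise of all members was that of a single factor that assembles complex II, Sdhaf4. Sdhaf4, which binds Sdha and helps it join Sdhb, was at 12.1, 14.2 and 15.8 CPM in WT. In cKO 8, 9, 12, 13 and 14 it was at 19.6, 17.8, 18.4, 23.8 and 17.4 CPM. No mouse labelled cKO reached down to the WT range. The log2 fold change was 0.43 (SE 0.08, limma adjusted p = 0.00823), a mean CPM 37.1% higher. Sdhaf2, which attaches the flavin to Sdha, was at 34.3, 35.2 and 36.9 CPM in WT and at 40.0, 39.3, 37.5, 46.5 and 40.5 CPM in cKO. Its groups were also apart, by less than 1 CPM between WT 15 and cKO 12 (log2 fold change 0.20, SE 0.05, limma adjusted p = 0.0192). Sdhaf1 and Sdhaf3, which help to fit the iron-sulphur clusters of Sdhb, did not pass, with log2 fold changes of -0.05 and 0.16. Cox7a2l, which helps to join complexes III and IV into supercomplexes, was at 0.14 and did not pass.

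**Figure D2:**
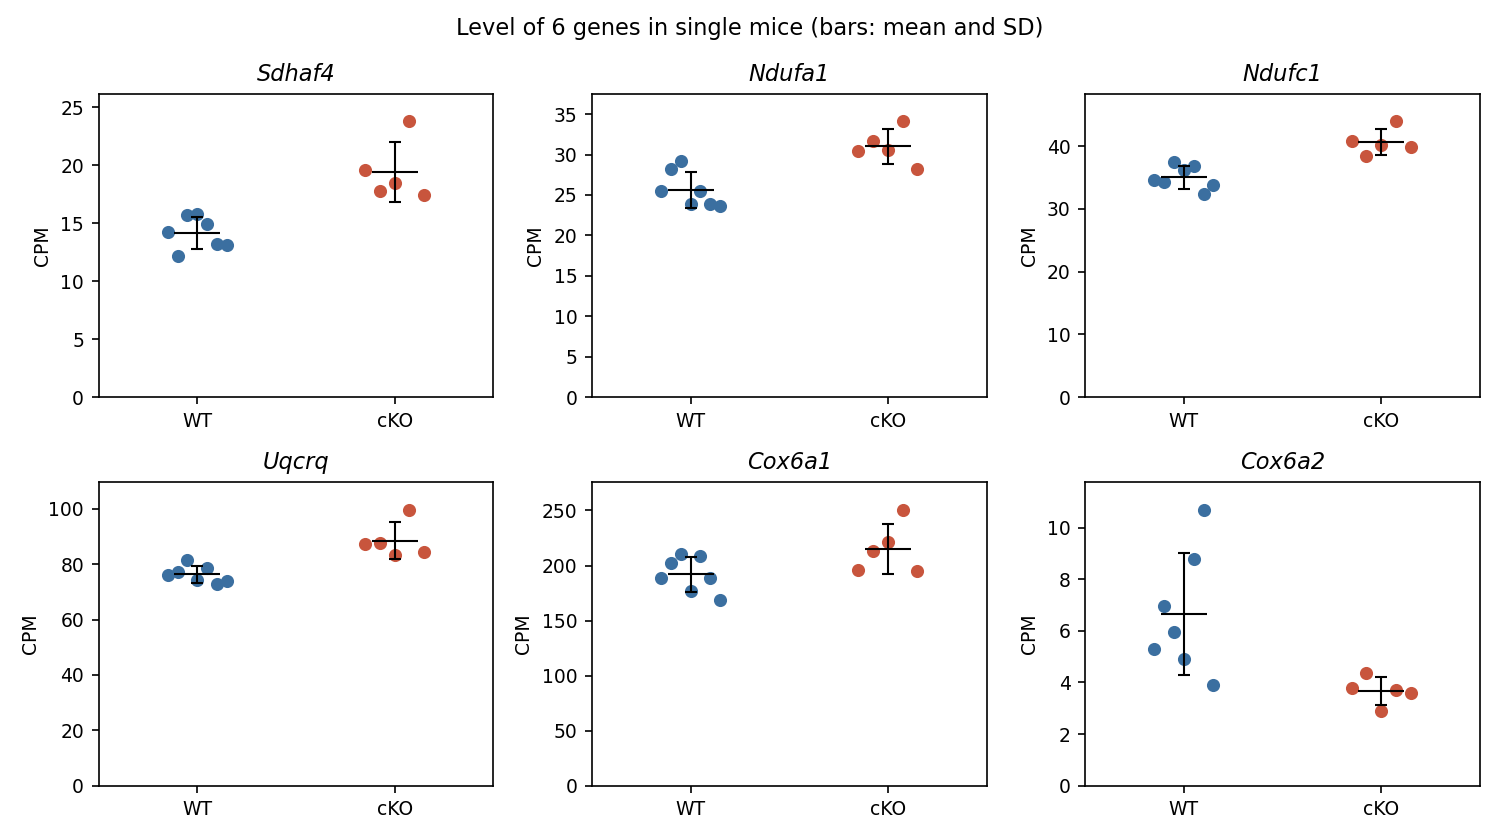
CPM (y axis, from 0) of 6 members in each mouse, WT in blue and cKO in red; black bars are the mean and SD of 7 and 5 mice. Sdhaf4, Ndufc1 and Uqcrq do not overlap between groups, Ndufa1 overlaps through cKO 14, Cox6a1 overlaps, and Cox6a2 is spread from 3.92 to 10.7 CPM in WT and lies between 2.89 and 4.36 CPM in cKO.

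Complex III, the cytochrome bc1 complex, had all 9 members above 0 and the highest median of the 5 complexes, 0.20. Of these, 4 rose (44.4%, against 6.54% of tested genes that were higher and 14.1% that passed in either direction). They were Uqcrc2, a large structural subunit facing the matrix, and the small subunits Uqcrb, Uqcrq and Uqcr11. The count past the threshold was 1 without WT 1, where 7.55% of tested genes passed. Without WT 5 it was 6, against 15% of tested genes. Uqcrq was at 72.9, 76.1 and 81.4 CPM in WT, and at 87.5, 87.8, 83.3, 99.8 and 84.5 CPM in cKO 8, 9, 12, 13 and 14. Every cKO value was above every WT value, with cKO 13 far above the other 4 (log2 fold change 0.21, SE 0.05, limma adjusted p = 0.013). Uqcr11 had the largest log2 fold change, 0.23: its mean was 38.8 ± 2.31 CPM over 7 WT mice and 45.9 ± 4.45 CPM (SD) over 5 cKO mice. Its ranges overlapped through cKO 14. The redox subunits Cyc1 (cytochrome c1) and Uqcrfs1 (the Rieske iron-sulphur protein) were both at 0.14 and did not pass. Uqcrc1, the member of the complex with the highest CPM, was at 0.06 and did not pass. Cycs, the mobile cytochrome c, was at 36.6, 39.0 and 51.0 CPM in WT and at 43.3, 46.6, 47.3, 56.1 and 48.0 CPM in cKO. Its groups overlapped through WT 4 and WT 5, and its log2 fold change of 0.22 did not pass (limma adjusted p = 0.0887).

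Complex IV, cytochrome c oxidase, had 13 of 15 members above 0 with a median of 0.16, but of its members 1 rose (6.67%, against 6.54% of tested genes), Cox6b1, which faces the intermembrane space, and 1 fell, Cox6a2. Together these are 13.3% of the complex, against 14.1% of tested genes, so its share of calls was at the background. Cox6b1 was at 101, 106 and 120 CPM in WT and at 128, 126, 129, 157 and 115 CPM in cKO 8, 9, 12, 13 and 14 (log2 fold change 0.24, SE 0.07, limma adjusted p = 0.0419). Here cKO 14 lay within the WT range, and the gene passed in 4 of the 12 fits that left out 1 mouse. Cox4i1, the subunit that takes part in regulation by ATP, had the highest CPM, 406 ± 29.9 (SD, n = 7) in WT and 456 ± 39.0 (SD, n = 5) in cKO, and did not pass (limma adjusted p = 0.0882).

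Cox6a2, the isoform of subunit VIa known from heart and skeletal muscle, was the one member that fell. It was at 5.31, 6.95, 5.95, 4.92, 8.78, 10.7 and 3.92 CPM in WT 1, 4, 5, 6, 7, 11 and 15. In cKO 8, 9, 12, 13 and 14 it was at 3.78, 4.36, 2.89, 3.70 and 3.61 CPM. The WT mice were spread widely, with WT 11 and WT 7 highest, and WT 15 lay within the cKO range. The log2 fold change was -0.66 (SE 0.18, limma adjusted p = 0.0293), and the gene passed in 8 of the 12 fits that left out 1 mouse. Thalamic neuron markers moved with it: of 10 such genes, 4 were lower in cKO and 0 higher, their summed level was 1582 to 2588 CPM in WT and 1335 to 1748 CPM in cKO, and WT 11 and WT 7 had the highest mean log2 level (7.68 and 7.47). With this thalamic mean as a covariate the Cox6a2 log2 fold change was -0.17 (limma adjusted p = 0.446). Of 5 striated muscle markers, Ckm, Tnnt3 and Myl1 were under 1 CPM and the other 2 did not pass, and the summed level of the list was 11.1 to 18.3 CPM in WT and 15.1 to 20.5 CPM in cKO. In whole tissue, fewer cells of a type and less RNA per cell cannot be told apart.

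Several subunits come as isoform pairs, and the balance within a pair was compared in each mouse as the difference of log2(CPM + 1) between the genes, for 6 pairs with both genes above 1 CPM. Cox6a1, the general isoform, exceeded Cox6a2 by 4.71 ± 0.38 (SD, n = 7) in WT and 5.54 ± 0.24 (SD, n = 5) in cKO on this scale. The difference between groups of 0.83 gave p = 0.00126 in a 2-sided exact permutation test over 792 splits, the smallest the design allows, and 0.00758 after Benjamini-Hochberg adjustment over the 6 pairs. The difference came with both a lower Cox6a2 and a Cox6a1 that did not pass on its own (log2 fold change 0.16, limma adjusted p = 0.134). Cox6b1 exceeded Cox6b2, an isoform known from testis, by 5.23 ± 0.15 (SD, n = 7) in WT and 5.65 ± 0.15 (SD, n = 5) in cKO. That difference between groups of 0.41 gave an adjusted exact permutation p of 0.0114. Cox6b2 was at only 1.84 CPM on average, with 23 reads in its lowest library, so the added 1 CPM lowers these log2 values. As a plain ratio of CPM, Cox6b1 was 46.8 to 74.3 times Cox6b2 in WT (mean 57.1) and 64.2 to 89.2 times in cKO (mean 81.2), and these ranges overlap. The pairs Cox4i1 and Cox4i2, Ndufa4 and Ndufa4l2, Atp5g3 and Atp5g1, and Atp5g3 and Atp5g2 did not pass, with differences of 0.07, 0.10, 0.03 and 0.16 and adjusted exact permutation p from 0.389 to 0.494. As a plain ratio of CPM, Cox6a1 was 17.6 to 43.0 times Cox6a2 in WT (mean 31.5) and 48.9 to 76.5 times in cKO (mean 59.8), with ranges apart. Per kilobase of transcript and over all 12 libraries, which averages over that difference, the general isoform was the more abundant: Cox4i1 was 341 times Cox4i2, a lung-enriched isoform, Cox6a1 was 44.4 times Cox6a2, and Ndufa4 was 95.5 times Ndufa4l2, a paralogue induced by low oxygen. Atp5g3 was 3.38 times Atp5g1, which encodes the same mature c-ring protein.

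Complex V, the ATP synthase, had all 17 members above 0 with a median of 0.16, and 3 rose (17.6%, against 6.54% of tested genes that were higher). This share is near the 14.1% of tested genes that passed in either direction. Atp5e, the epsilon subunit of the rotor, was at 48.8, 54.5 and 56.5 CPM in WT and at 63.2, 62.7, 60.5, 69.3 and 53.1 CPM in cKO 8, 9, 12, 13 and 14. All but cKO 14 were above the WT range (log2 fold change 0.21, SE 0.06, limma adjusted p = 0.0296). Atp5md, a small membrane subunit that helps hold ATP synthase dimers, had the largest change, 0.23 (SE 0.06, limma adjusted p = 0.0296). Atp5j, coupling factor 6 of the peripheral stalk, rose by 0.21 (SE 0.06, limma adjusted p = 0.0492) and passed in 3 of the 12 fits that left out 1 mouse. Atp5b and Atp5a1, the catalytic beta and the alpha subunit of the head, were the most abundant members, with mean levels of 1200.3 and 971 CPM. Their log2 fold changes were 0.13 and 0.07 and did not pass. Atp5b was at 1075 to 1258 CPM in WT, and only cKO 13, at 1450.5 CPM, lay above that range. Per kilobase Atp5b also led all members at 626 CPM, followed by Cox4i1 at 573 CPM and Atp5a1 at 393 CPM.

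Core here means 7 subunits of complex I, all 4 of complex II, Cyc1 and Uqcrfs1, and 5 of complex V, Atp5a1, Atp5b and Atp5e among them. Every other subunit of complexes I to V was counted as accessory. That set includes all of complex IV and the c-ring genes Atp5g1 to Atp5g3, so it is accessory by this definition only. Most subunits of both sets shared the sign of change. All 18 core subunits were above 0, with a median log2 fold change of 0.12, and 3 of them rose, Ndufs8, Sdhb and Atp5e. That is 16.7%, against 6.54% of tested genes that were higher, and near the 14.1% that passed in either direction. Of the 63 accessory subunits 61 were above 0, with a median of 0.17. Of these 17 rose (27.0%, against 6.54% of tested genes) and 1 fell. The difference between these sets was not tested. The median transcript length was 1442 bases over the core and 659 bases over the accessory subunits, and its part in the result was not tested. Across the 87 members the Spearman correlation of log2 fold change with transcript length was -0.36, as a description of genes in the same libraries. The median was 0.21 over 11 members under 500 bases, 0.17 over 26 members from 500 bases, 0.18 over 19 members from 700 bases and 0.14 over 31 members from 1000 bases, so it did not fall at every step. Over all tested genes of these lengths the medians were 0.03, 0.07, 0.06 and 0.01. After each library was corrected for GC content and length the median over members was 0.13, over core subunits 0.0997 and over accessory subunits 0.134. The Spearman correlation with length across the members was then -0.33. In that fit 25 members were higher (28.7%, against 9.28% of the genes tested in it) and 1 lower. Of these 26, 20 were shared with the uncorrected calls.

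**Figure D3:**
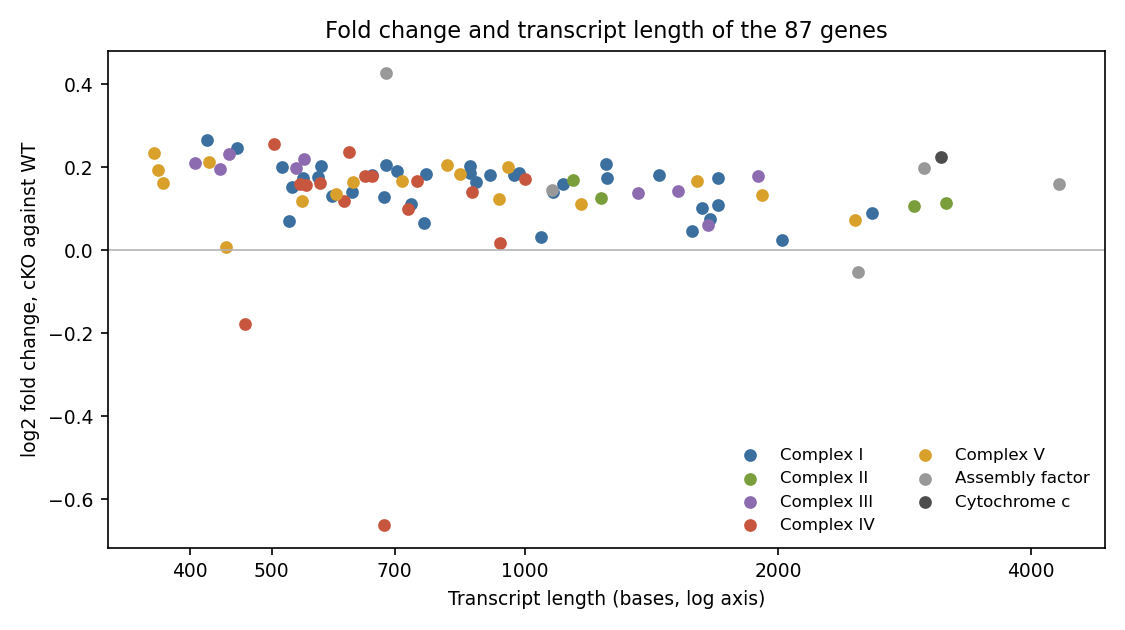
Log2 fold change (y axis) of the 87 members against transcript length in bases (x axis, log scale), 1 point per gene, coloured by complex. Points slope gently down with length, with a Spearman correlation of -0.36, and Cox6a2 lies alone at -0.66.

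The members moved together from mouse to mouse. Relative to the WT mean, the mean log2 level of all 87 was -0.03, 0.07, 0.14, -0.05, 0.05, -0.09 and -0.09 in WT 1, 4, 5, 6, 7, 11 and 15. It was 0.08, 0.13, 0.12, 0.32 and 0.07 in cKO 8, 9, 12, 13 and 14. WT 5 was above 4 of the 5 mice labelled cKO, and cKO 13 was far above all others. Within its group cKO 13 held the highest value for 75 of 87 members and WT 5 for 62. After group means were removed, the first component held 63.4% of the members' variance, with the same sign for 86 of 87, and 45.6% of that of all tested genes. Summed over members the level was 9218 to 10776 CPM in WT and 10246 to 12369 CPM in cKO.

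**Figure D4:**
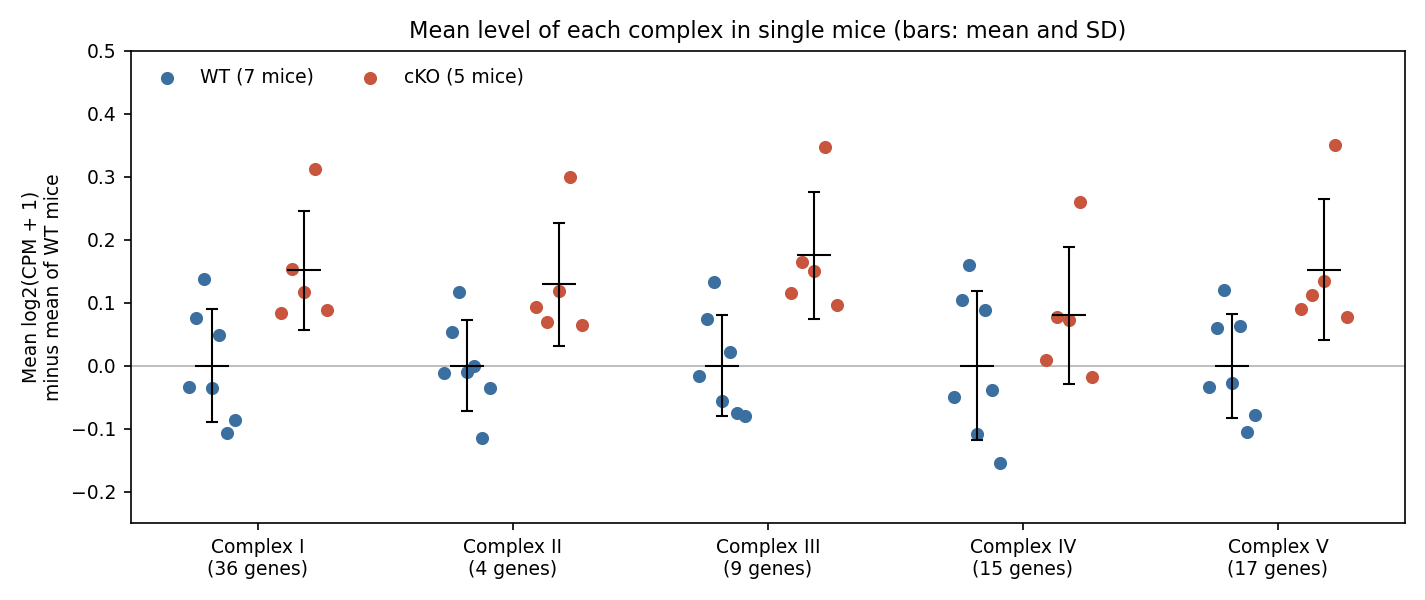
Mean log2(CPM + 1) of the members of each complex in single mice, minus the mean of the WT mice (y axis), WT in blue and cKO in red; black bars are the mean and SD. The groups overlap in every complex, and cKO 13 is the highest point in each, from 0.26 in complex IV to 0.35 in complexes III and V.

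Beside the neuronal ones, mean levels of astrocyte, endothelial and mural, oligodendrocyte and microglial markers were slightly higher in cKO, though none of these markers passed. The mean log2 level of 8 pan-neuronal genes was 9.07, 9.04 and 8.99 in WT 4, 5 and 7 and 8.79 to 8.89 in the other WT mice. It was 8.96 to 9.07 in cKO 8, 9, 12 and 14 and 9.21 in cKO 13. The WT mice with the highest neuronal levels were those with the highest respiratory chain levels. Of the 8 markers 6 had a log2 fold change above 0 and 2 below. Only Stmn2 passed, as higher, and the summed level of the 8 was 4501 to 5293 CPM in WT and 4922 to 5862 CPM in cKO. The mean log2 level of 6 astrocyte markers was higher in cKO by as much (0.14, against 0.13 for the neuronal genes), from 7.68 in WT 11 to 8.19 in WT 5 among WT mice and from 7.89 to 8.24 in cKO mice, with cKO 13 again highest. Their summed level was 1993 to 2459 CPM in WT and 2328 to 2644 CPM in cKO. For 6 markers of endothelium and mural cells the mean was higher by 0.11, with sums of 312.5 to 396.1 CPM in WT and 360.6 to 415.2 CPM in cKO. The mean of 6 oligodendrocyte markers differed by 0.07 and that of 6 microglial markers by 0.07. The microglial mean was highest in WT 7 (4.305, against 4.224 in cKO 13). For 5 tested markers of ependyma and choroid plexus the difference was 0.005. Of the 24 astrocyte, endothelial and mural, oligodendrocyte and microglial markers 0 passed in limma, edgeR or DESeq2. An unadjusted limma p under 0.05 was found for 2 of them, both higher. The part of these cell types in the members' difference was not tested. With the neuronal mean as a covariate 68 of 87 members were above 0, and the 2 that passed were Sdhaf4 (0.38, limma adjusted p = 0.0285) and Cox6a2 (-0.82, limma adjusted p = 0.0247). Without WT 4 and WT 5, 42 members passed, against 14.6% of tested genes. Without WT 4, WT 5, cKO 12 and cKO 13, 22 passed with a median of 0.15, against 10.3% of tested genes, and 12 of them were shared with the 23.

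**Figure D5:**
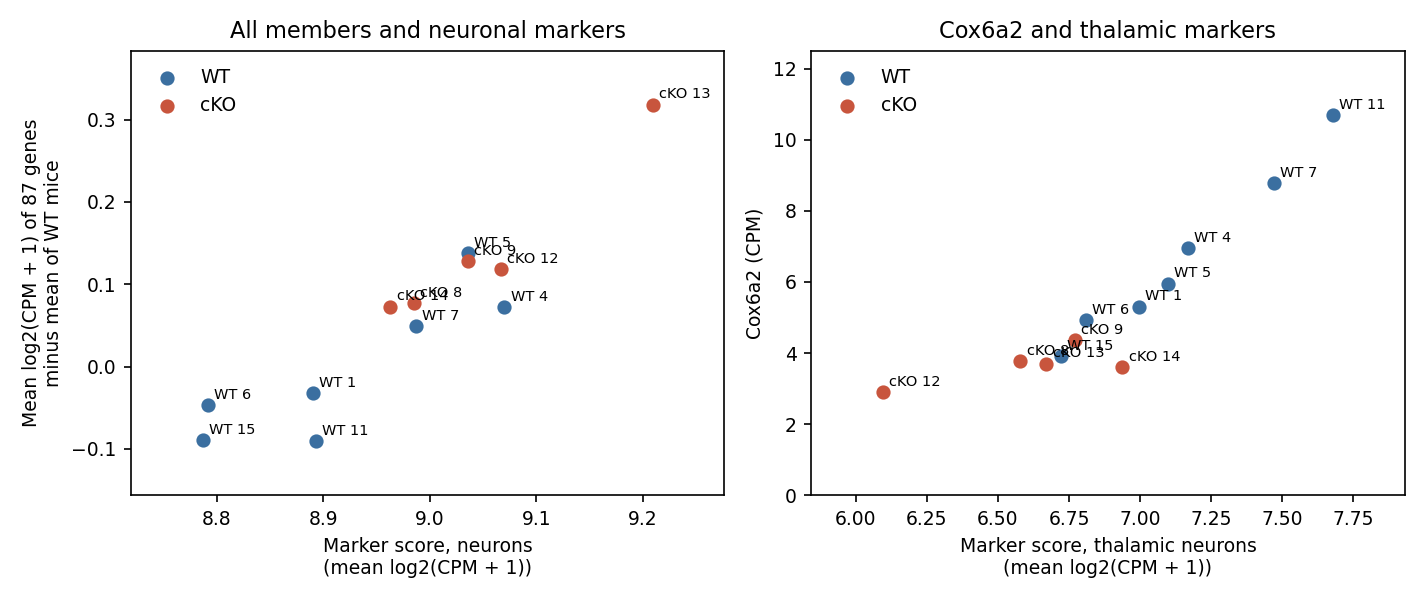
Left, mean log2 level of the 87 members relative to WT (y axis) against the mean log2(CPM + 1) of 8 neuronal markers (x axis); right, Cox6a2 in CPM (y axis) against the same mean of 10 thalamic markers, 1 labelled point per mouse, WT in blue and cKO in red. The members lie highest in cKO 13, which also has the highest neuronal value of 9.21, and Cox6a2 lies highest in WT 11 and WT 7, which have the highest thalamic values of 7.68 and 7.47.

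Promoters of respiratory chain genes are known for sites of NRF1, of the ETS factor GABP (NRF2) and of YY1. RefSeq promoters (build GRCm38.p6, 250 bases before to 50 after the start) were matched for 71 of 87 members, by symbol, and searched on both strands. The letters GCGCA, any base and GCGC in a row (NRF1) were found in 26.8% of these members and in 5.19% of all 27025 genes in the table. CCGGAAG (ETS) was found in 28.2% against 9.93%, and AAGATGGCG (YY1) in 9.86% against 1.64%. The last 3 letters of the ETS motif can also begin the YY1 motif, and such an overlap of ETS and YY1 letters occurred in 0 of these members. Among the 18 matched members past the threshold 8 held the ETS letters, 3 NRF1 and 3 YY1, and among the other 53, 12, 16 and 4 did. The 27025 genes were not limited to those at 1 CPM or more, as the members were, so the shares come from unlike sets. The part of that limit in the difference was not tested. A match is a description of letters and not a bound site. The promoters of 3 members whose groups did not overlap are shown because each holds a different motif, in capitals: Sdhaf4 (chr1:24005591-24005890, minus strand, NRF1, read on the other strand), Sdhaf2 (chr19:10525160-10525459, minus strand, ETS in 2 places, read on the other strand) and Ndufc1 (chr3:51408906-51409205, minus strand, YY1).
Sdhaf4: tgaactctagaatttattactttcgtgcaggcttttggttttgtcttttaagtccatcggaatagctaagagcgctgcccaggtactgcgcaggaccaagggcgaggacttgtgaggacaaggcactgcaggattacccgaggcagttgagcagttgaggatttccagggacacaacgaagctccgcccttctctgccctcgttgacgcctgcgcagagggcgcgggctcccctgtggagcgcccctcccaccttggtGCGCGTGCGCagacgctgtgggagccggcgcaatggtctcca
Sdhaf2: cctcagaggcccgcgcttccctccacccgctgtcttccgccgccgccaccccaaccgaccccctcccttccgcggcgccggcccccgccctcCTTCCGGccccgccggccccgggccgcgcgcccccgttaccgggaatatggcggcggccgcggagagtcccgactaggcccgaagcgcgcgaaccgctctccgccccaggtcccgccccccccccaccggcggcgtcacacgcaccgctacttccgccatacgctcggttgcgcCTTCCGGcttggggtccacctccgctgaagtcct
Ndufc1: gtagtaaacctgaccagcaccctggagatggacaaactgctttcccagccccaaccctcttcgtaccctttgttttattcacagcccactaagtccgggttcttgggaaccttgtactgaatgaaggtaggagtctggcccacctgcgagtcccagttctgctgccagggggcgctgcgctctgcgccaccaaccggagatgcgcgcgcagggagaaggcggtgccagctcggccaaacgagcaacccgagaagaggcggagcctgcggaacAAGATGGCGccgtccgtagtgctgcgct

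Other genes of the pathway were counted from lists of fixed membership, beside the 6.54% of tested genes that were higher. Of 17 genes listed for complex I assembly 2 rose, Ndufaf4 and Timmdc1 (median 0.11). That list also holds Cox7a2l, a member described above with complexes III and IV. Of 13 genes that assemble complexes II, III and V, 4 rose, Sdhaf2 and Sdhaf4 with Uqcc2, a complex III factor, and Tmem70, a complex V factor (median 0.10). Of 23 tested complex IV assembly genes 2 rose, the copper chaperone Cox17 and Coa5 (median 0.12). Among 17 genes of the citric acid cycle and its entry 3 rose, Idh3a, Dld and Pdhb (median 0.10). The mitochondrial ribosome, which translates the mitochondrially encoded subunits, had 7 of 78 genes higher and 0 lower (median 0.10), and the cytoplasmic ribosome 7 of 74 higher and 0 lower (median 0.08). Log2 fold changes above 0 were found for 73 of the 78 and 71 of the 74. The same held for 15 of 17, 10 of 13 and 21 of 23 genes in the 3 assembly lists as ordered here, and for 14 of 17 citric acid cycle genes. Among 16 regulators of respiratory chain transcription the median was 0.0007, and 1 rose and 2 fell. Together these are 18.75%, against 14.1% of tested genes that passed in either direction and 7.6% that were lower. Gabpb2, a partner of the ETS factor GABPA, fell, with means of 29.9 ± 1.76 in 7 WT and 23.8 ± 1.48 CPM (SD) in 5 cKO mice and ranges apart (log2 fold change -0.32, limma adjusted p = 0.00403). Ppargc1b, a coactivator of mitochondrial genes, fell by 0.23 on the log2 scale, and Creb1 rose by 0.13.

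Counting limits touch some members. The deposited values do not say how reads shared between copies were counted, and 28 of 87 members had a match of at least 200 bases and 95% identity to another annotated gene, 20 of them to a pseudogene. Atp5l, with 8 such pseudogenes, was at 5.17 CPM, and Ndufb4 and Atp5g2 at 5.62 and 8.13 CPM, so their levels are uncertain. Of the 23 members past the threshold 4 had such a copy. Exons of 31 members, 11 of them past the threshold, overlap a gene on the opposite strand, among them Sdhaf4, Sdhaf2, Ndufa2 and Cox6a2, and no source used here says whether reads were counted by strand. The members nearest the limit of 1 CPM were Cox4i2 at 1.22, Cox6b2 at 1.84 and Ndufa4l2 at 2.44 CPM, and just below it lay Cox7b2 at 0.292, Cox7a1 at 0.256 and Ndufs6b at 0.0899 CPM.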

How the data were processed

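Messenger RNA libraries of 12 hypothalami were sequenced. The authors deposited CPM per gene, and the log2 fold change, log2 mean CPM, p-value and FDR of a test they ran. The submitters' processing notes name STAR 2.7.9a, FastQC 0.11.9, SAMtools, bcl2fastq, Subread and featureCounts; genome build, annotation and strand setting are not given in the sources used here. The deposited CPM were whole multiples of 1 step per library for 100% of values (within 0.01), so whole reads were recovered, and scaling factors were 0.987 to 1.02. A level of 3 reads was 0.0436 to 0.178 CPM, which covers counting error only.

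The 15359 genes averaging 1 CPM or more were tested with limma 3.58.1 (R 4.3.3, eBayes with a mean-variance trend) on log2(CPM + 1), which understates changes of low genes, for 7 WT against 5 cKO mice grouped by title. Adjusted p-values are Benjamini-Hochberg's over all tested genes, with a threshold of 0.05. Alternatives were a pseudocount of 0.1, other filters, scalings, variance models and library weights, edgeR 4.0.16 and DESeq2 1.42.0 on the recovered reads, GC and length splines over 14692 genes matched to GENCODE M21 by symbol, marker means as covariates, and each mouse left out. Those 2 count tests called 2097 and 2747 genes. Isoform ratios were compared by exact permutation with scipy 1.17.1, and copies were sought with blastn 2.17.0 among GENCODE M21 transcripts. On simulated data with 200 genes changed by 1 log2 unit, limma recovered 99.5% of the 198 that were tested among 15401 genes. No member changed by as much as 1 log2 unit, and smaller changes were not simulated. This recovery therefore does not say how many member changes of the size seen here would be missed.

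The members, lists and tests were chosen with earlier results of these data known. Named are all members past the threshold, and in each complex the most abundant and the most changed member. Both genes of each tested pair and the 3 genes on either side of 1 CPM are named as well. From the assembly, citric acid cycle, regulator and neuronal lists, the genes past the threshold are named. Those past it in the ribosomal, thalamic and hypothalamic lists are not named. Other named genes were chosen after their values were seen. Values of 1 further member are not reported here. No pair of replicates within a group matched within sampling noise (chi-square per degree of freedom at least 3.04 over 31 pairs). The labels do not say whether mice were littermates, and the p-values measure the spread between these mice.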

Additional observations from a re-analysis of the deposited data

Results flagged for a closer look

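Within each group, the highest and lowest mouse was compared with its nearest neighbour by Dixon's criterion for named members and for mean levels by complex. Of 104 such groups of values 16 had a mouse that stood apart, where chance gives about 5.2 (1 in 20), and 14 of them were the same mouse, cKO 13.

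For single genes cKO 13 stood above the other mice labelled cKO in Ndufa4 (192.8 CPM, next 156.6), the complex I genes Ndufb3 (76.63 CPM, next 65.52) and Ndufs6 (61.15 CPM, next 53.08), and Sdhb of complex II (148.7 CPM, next 126.3). It stood above them in Uqcrc2 (198.1 CPM, next 171.2) and Uqcrq (99.75 CPM, next 87.84) of complex III. In complex V it stood apart in Atp5g3 (300.5 CPM, next 251.6) and Atp5md (77.82 CPM, next 67.47), and among assembly factors in Cox7a2l (91.16 CPM, next 72.54). In mean log2 level relative to WT it stood apart over all members (0.3181, next 0.1282), complex II (0.2996, next 0.1187), complex III (0.3477, next 0.1652), complex V (0.3496, next 0.1341) and the assembly factors (0.3607, next 0.1506). WT 5 stood above the other WT mice in the assembly factors (0.1263, next 0.0026). WT 1, the most deeply sequenced library, stood apart in the mean over all tested genes (0.02703, next 0.0001). The genes and complexes were measured in the same libraries and share these mice.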

How the results depend on the processing

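Of 589 values recomputed under alternatives other than leaving out 1 mouse, 469 kept their direction and their side of the threshold (or lay within 1.5 times the count), and of 444 that left out 1 mouse 332 did. No paired analysis was possible because the WT and the cKO mice have different numbers. All members past the threshold numbered 23 at first (26.4%, against 14.1% of tested genes), 12 when every gene above 0 was tested (13.8%, against 4.855%), 63 with library weights (72.4%, against 33.37%), 0 with the thalamic mean as covariate (against 4.28%), 2 with the neuronal mean (2.30%, against 12.1%), 42 without WT 4 and WT 5 (48.3%, against 14.6%), and 7 to 37 with 1 mouse left out. Over all tested genes 5126 passed with library weights, 658 with the thalamic mean, 1328 with the hypothalamic and thalamic means, and 1158 to 2302 with 1 mouse left out. The counts by complex stand against the same shares of tested genes, 33.37% with library weights; with both regional means the share was 8.65%, with median centring 15.83%, with quantile normalization 13.28% and without trend 12.98%. Complex I had 6 members past the threshold with every gene above 0, 25 with library weights, 0 with the thalamic and 0 with the neuronal mean, 6 with both regional means, 18 without WT 4 and WT 5, and 3 to 18 with 1 mouse left out. Complex II had 2 with library weights, 0 to 1 with 1 mouse left out, and 0 with every gene above 0, quantile normalization, eBayes without trend, each of the 3 covariate fits, and without WT 4, WT 5, cKO 12 and cKO 13. Complex III had 8 with library weights, 0 with the thalamic and 0 with the neuronal mean, 7 without WT 4 and WT 5, and 1 to 6 with 1 mouse left out. Complex IV had 0 with every gene above 0, 0 with quantile normalization, 1 without trend, 12 with library weights, 0 with the thalamic mean, 4 with both regional means, 1 with the neuronal mean, 5 without WT 4 and WT 5, and 0 to 4 with 1 mouse left out. Complex V had 0 with every gene above 0, 7 with median centring, 12 with library weights, 0 with the thalamic and 0 with the neuronal mean, 7 without WT 4 and WT 5, and 0 to 4 with 1 mouse left out. The other mitochondrial and ribosomal lists had 26 genes past the threshold that are not members, 15 with every gene above 0, 40 with median centring, 89 with library weights, 5 with the thalamic mean, 10 with both regional means, 7 with the neuronal mean, 15 without WT 4, WT 5, cKO 12 and cKO 13, and 7 to 34 with 1 mouse left out.

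With the neuronal mean as covariate the median log2 fold change was 0.05152 over all members, 0.05876 in complex I, 0.08083 in complex III, 0.0203 in complex IV and 0.04373 in complex V. That fit turned the sign of 16 of the 87 members, of which 0 had passed, among them the named genes Cox4i2 (-0.06358), Ndufa4 (-0.0118), Ndufa4l2 (-0.07576) and Uqcrc1 (-0.02658). Atp5g2, at 0.007 at first, was below 0 with library weights (-0.02912), edgeR (-0.005942), DESeq2 (-0.009036), both regional means (-0.01011), without WT 4 and WT 5 (-0.05423), without WT 4, WT 5, cKO 12 and cKO 13 (-0.07005), and, over a range of -0.03544 to 0.0586 with 1 mouse left out, without WT 4 (-0.0133), WT 5 (-0.0242), WT 11 (-0.0119), cKO 13 (-0.008595) and cKO 14 (-0.03544). Ndufa4l2 was below 0 without WT 6 (-0.0125), WT 15 (-0.01346) and cKO 12 (-0.03021), with a range up to 0.04999. The log2 ratio of Cox4i1 to Cox4i2 differed by -0.004957 with a pseudocount of 0.1. The adjusted exact permutation p of the Cox6a1 to Cox6a2 and Cox6b1 to Cox6b2 ratios stayed between 0.00649 and 0.0195 over a pseudocount of 0.1 and each mouse left out. With 1 mouse left out the medians lay between 0.1151 and 0.1892 over all members, 0.1239 and 0.1914 in complex I, 0.08172 and 0.144 in complex II, 0.153 and 0.2236 in complex III, 0.1068 and 0.1828 in complex IV, and 0.1011 and 0.1932 in complex V. The causes of these differences were not tested. Small members rested on few reads, such as Cox4i2 with 15 in its lowest library.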

Other observations

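Isoforms under the 1 CPM limit rested on few reads, where 3 reads were 0.0436 to 0.178 CPM depending on the library. Cox7a1, the muscle isoform of subunit VIIa, was at 0.178 to 0.433 CPM in WT and 0 to 0.373 CPM in the libraries labelled cKO. Cox7b2, known from testis, was at 0.134 to 0.493 and 0 to 0.533 CPM. Cox8b, the muscle isoform of subunit VIII, was at 0 to 0.246 and 0 to 0.095 CPM, and Cox8c, another testis isoform, was at 0 in all 12 libraries. The ranges of the groups overlapped for Cox7a1, Cox7b2 and Cox8b, and no test was made.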
